A study of Homo sapiens with 6 samples.

Results

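The genes described here are 35 named components of the autophagy machinery and its cargo receptors, chosen by symbol from what their proteins are known to do; earlier results of these data were known when they were chosen. All 35 were found among the 57905 gene rows of each library. They fall into 6 roles: 5 initiation genes, 6 genes of the phosphatidylinositol 3-kinase complex, 6 of membrane supply and scaffold, 9 of the conjugation enzymes, 4 of the ATG8 family and 5 receptors. Of the 35, 34 were abundant enough to be tested, among 14578 tested genes. The exception was ULK2.

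Expression was measured by RNA sequencing of total RNA from U87, an established human glioma line. There were 3 libraries labelled control, with wild-type genotype and no treatment, and 3 labelled siRBM47, given 100 pmol of a small interfering RNA by lipid transfection. RBM47 is an RNA-binding protein. The same transfection protocol is attached to all 6 libraries, so the labels leave unsaid whether control cells received a transfection, and a time after transfection is not given in the sources used here. All libraries come from a single cell line, and nothing says that replicates were separate cultures. The spread behind every p-value is therefore that between libraries of a label, and it may be technical.

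Macroautophagy encloses cytoplasm in a double membrane that fuses with the lysosome. The ULK1 kinase complex starts the process, the phosphatidylinositol 3-kinase complex marks the site, and lipid carriers and scaffolds supply the growing membrane. Conjugation enzymes then attach ATG8 proteins to that membrane, and receptors such as SQSTM1 tie ubiquitin-marked cargo to them. Much of the control of autophagy acts on these proteins and not on their transcripts, and transcript levels do not measure flux through the pathway.

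Total counts ran from 15580000 to 18130000 per library, rounded. Control replicate 3 stood apart from the other controls: its Pearson correlation with control replicates 1 and 2 was 0.941 and 0.950, against 0.988 between these. RBM47 itself was at 1.62, 1.73 and 5.75 CPM (counts relative to the scaled library total) across control replicates 1 to 3, against 3.54, 2.74 and 2.23 in siRBM47 replicates 1 to 3. The targeted transcript was thus not measurably lower in the libraries labelled siRBM47 (log2 fold change -0.11, SE 0.50, edgeR adjusted p = 0.942). Without control replicate 3 its log2 fold change was 0.76, higher in siRBM47 (edgeR adjusted p = 0.152). Every direction below is a difference between labels. Among markers of the line, VIM was at 3873 ± 1054 CPM in the controls, against 3954 ± 603 in siRBM47, and CD44 at 800 ± 46.7 and 734 ± 155 (SD, n = 3 each). GFAP averaged 1.05 and 0.73 CPM. Of the markers of other cell types, AQP4 had 0 counts in all libraries, and PTPRC and CDH5 had 0 or 1 count in each. Others were abundant enough to be tested. These included the epithelial EPCAM and CDH1, with log2 fold changes of -0.07 and 0.55 between them (edgeR adjusted p from 0.636 to 0.962). Of the neuronal markers RBFOX3, SYT1 and SNAP25, 2 of 3 were tested and 0 were called. The endothelial gene VWF was low but uneven, at 0.203, 0.345 and 2.98 CPM across control replicates 1 to 3, against 2.54, 1.20 and 1.73 in siRBM47 (log2 fold change 0.60, edgeR adjusted p = 0.754; 2.68 without control replicate 3, adjusted p = 0.00591). The neuronal gene SNAP25 was at 13.3, 16 and 12.03 CPM in the controls, against 28.4, 19.1 and 17.1 (0.64, SE 0.25, edgeR adjusted p = 0.254), with separated groups. The part of any of these markers in the results below was not tested.

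Between genes, levels were compared by the deposited FPKM (fragments scaled to gene length and library size). Mean control FPKM of the 34 tested genes ran from 1.22 to 45.3 with a median of 8.14, and 13 genes reached at least 10. The highest were GABARAPL2 at 45.3, VMP1 at 38.3, MAP1LC3B at 29 and SQSTM1 at 23.9. The lowest were PIK3C3 at 1.22, UVRAG at 1.97 and ATG10 at 2.02. GABARAPL2 and MAP1LC3B of the ATG8 family and the receptor SQSTM1 were thus among the most abundant transcripts of the machinery, while GABARAP, at 6.74, lay below the median. The lipid kinase that marks the site, PIK3C3, was the lowest of the tested genes by FPKM. That rank leans on the scaling to gene length, as PIK3C3 has 15198 exon bases. By CPM its control mean, 18.7, lay above those of GABARAP (15.5), ATG4A (13.3), UVRAG (12.7) and ATG10 (11.1). Each tested gene had between 111 and 5002 counts in every library. The median coefficient of variation between replicates was 18.9% in control and 17.1% in siRBM47, beside 23.0% and 16.9% over all tested genes.

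**Figure D1:**
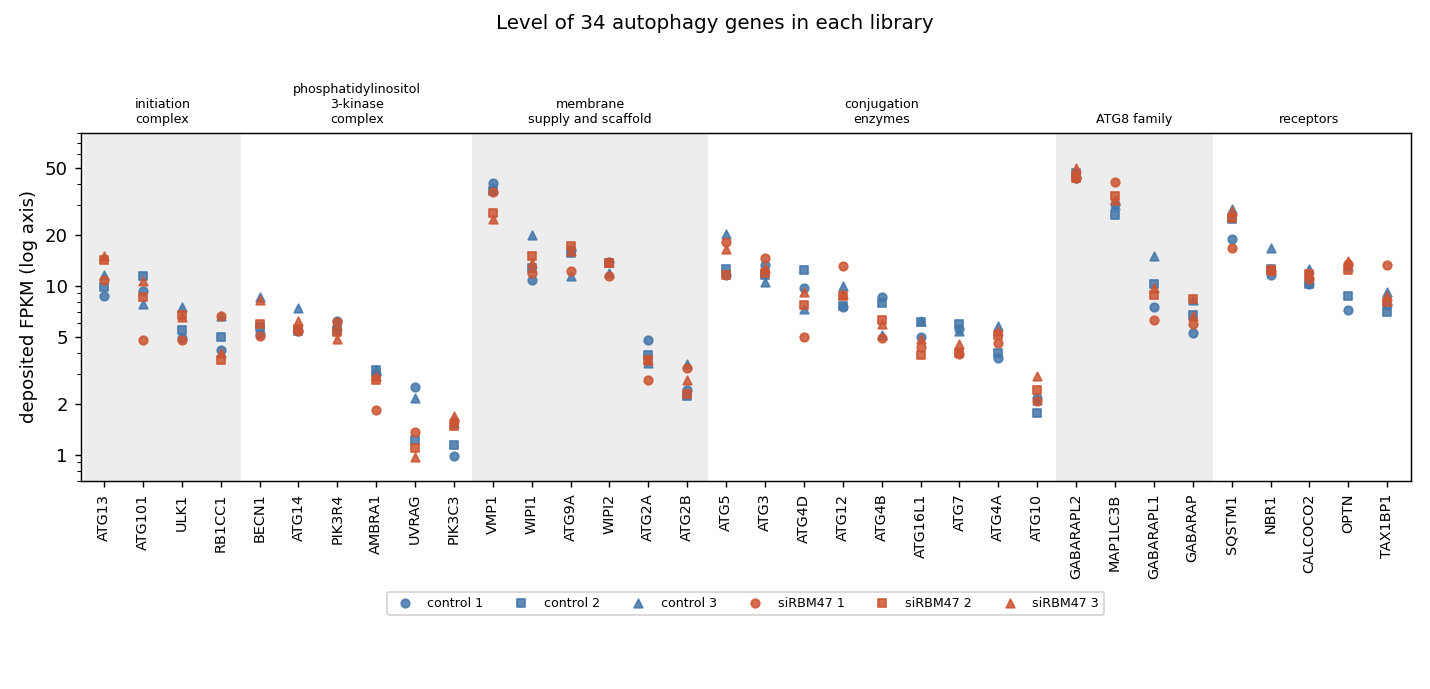
Deposited FPKM (log axis) of the 34 tested autophagy genes in each of the 6 libraries, grouped by role and ordered by mean control level within a role. Blue symbols are control replicates, red symbols siRBM47 replicates, and mean control levels run from 1.22 (PIK3C3) to 45.3 (GABARAPL2).

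No autophagy gene differed between siRBM47 and control past the threshold. By the edgeR quasi-likelihood test with Benjamini-Hochberg adjustment over all tested genes, 0 of 34 rose and 0 fell at an adjusted p under 0.05. In the same fit 12 genes of all tested rose (0.0823%) and 20 fell (0.137%), 0.22% in either direction, so a count of 0 among 34 is near this background. DESeq2 called 0 of the 34 (4.42% of all tested genes) and limma-voom 0 (0.233%). At an unadjusted p under 0.05, 0 of the 34 were higher and 2 lower, ATG7 and UVRAG, beside 7.15% higher and 8.94% lower of all tested genes. The adjusted p ran from 0.245 to 0.995. In such bulk libraries, fewer cells of a type and less RNA per cell cannot be told apart.

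The sizes of the differences were small. Log2 fold changes (siRBM47 over control) ran from -0.79 (UVRAG) to 0.45 (OPTN), 15 positive and 19 negative, with a median of -0.03 beside -0.01 over all tested genes. The median absolute log2 fold change was 0.21, beside 0.29 over all tested genes, and the median SE was 0.23 beside 0.26. For 31 of the 34 genes the 95% interval lay inside a 2-fold change in either direction, which held for 56.9% of all tested genes. The 3 exceptions were ATG4D, GABARAPL1 and UVRAG. All siRBM47 libraries lay above all controls for 1 gene, MAP1LC3B, and below for 4, VMP1, ATG16L1, AMBRA1 and ATG7. Over all tested genes 11.6% and 11% were separated in these directions (22.6% together), and 5 of 34 is 14.7%.

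**Figure D2:**
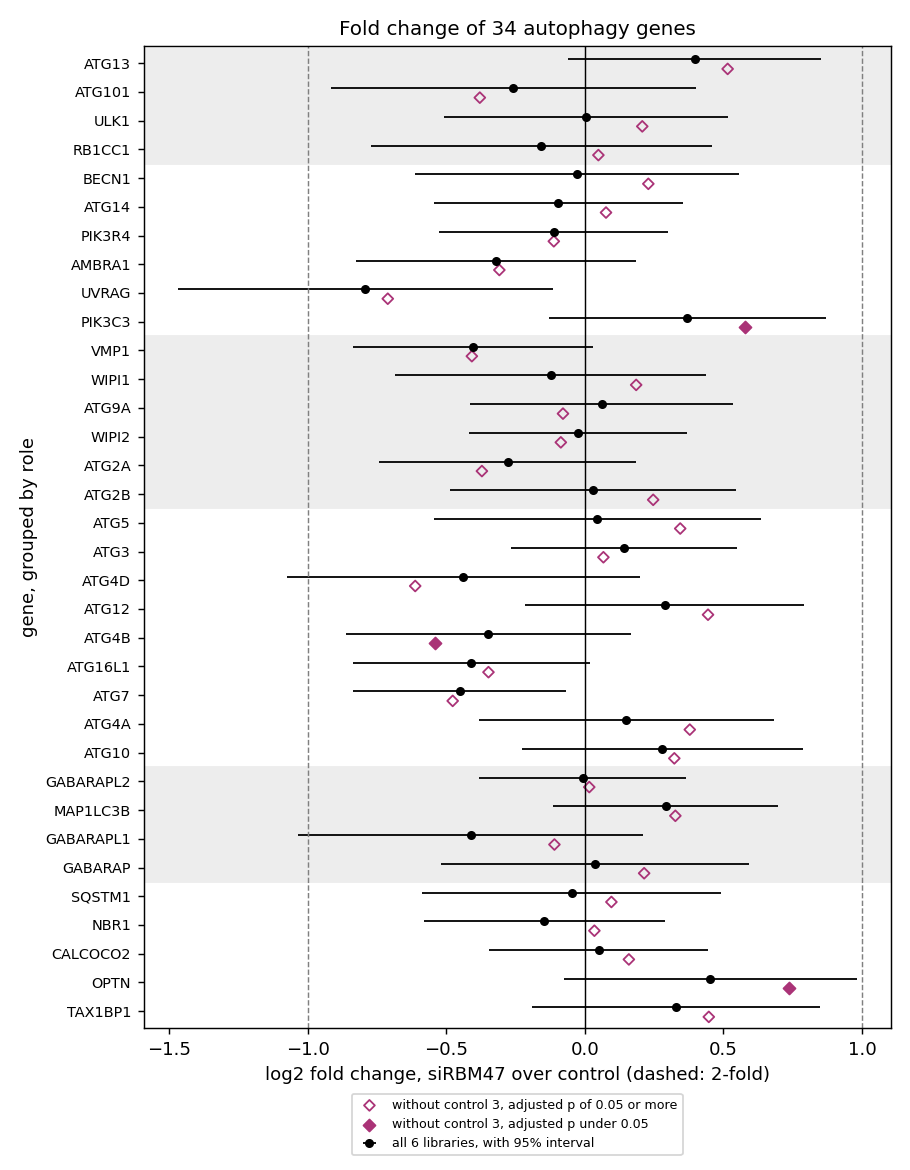
Log2 fold change of the 34 tested autophagy genes, siRBM47 over control, by role. Black points with bars give the fit of all 6 libraries with its 95% interval. Diamonds give the fit without control replicate 3, with no interval, and are filled where the edgeR adjusted p was under 0.05. In the fit of all libraries, intervals of ATG4D, GABARAPL1 and UVRAG are the only ones to pass a 2-fold change.

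The initiation complex joins the kinases ULK1 or ULK2 to the adaptor ATG13, the scaffold RB1CC1 (FIP200) and ATG101, which stabilises ATG13. Of the kinases only ULK1 was measurable: its mean control FPKM was 5.95, while ULK2 had 0, 1 and 0 counts across control replicates 1 to 3, against 4, 0 and 0 in siRBM47. A count of 0 allows up to 3 counts, which is 0.16 to 0.203 CPM in these libraries, so no fold is given for ULK2. ATG13 was at 64.3, 72.3 and 86.0 CPM across control replicates 1 to 3, against 78.6, 105 and 110 in siRBM47 replicates 1 to 3. Its groups overlapped only through control replicate 3 and siRBM47 replicate 1 (log2 fold change 0.40, SE 0.20, edgeR adjusted p = 0.379). For ATG101 siRBM47 replicate 1 was the lowest library, at 15.2 CPM against 27.9 and 34.2 in the other two siRBM47 libraries. For RB1CC1 the same library was high, at 50.8 CPM against 28.0 and 30.3. Their group means were 30.8 ± 5.69 and 25.8 ± 9.67 CPM for ATG101 and 40.5 ± 9.80 and 36.3 ± 12.5 for RB1CC1 (control and siRBM47, SD, n = 3 each). Those for ULK1 were 45.8 ± 10.7 and 46.0 ± 8.43.

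The lipid kinase complex consists of the catalytic subunit PIK3C3 (VPS34), the regulatory subunit PIK3R4 (VPS15), the scaffold BECN1, and either ATG14, which directs it to autophagosome formation, or UVRAG, which serves endosomal traffic. AMBRA1 binds BECN1 and regulates the complex. UVRAG had the most negative fold change of all 34 genes. Its level was 16.2, 7.83 and 13.9 CPM across control replicates 1 to 3, against 8.67, 7.03 and 6.20 in siRBM47, so control replicate 2 lay within the siRBM47 range. This gave a log2 fold change of -0.79 (SE 0.30, 95% interval -1.47 to -0.11, unadjusted p = 0.0265, edgeR adjusted p = 0.247), and the controls themselves spread over a wide range (12.7 ± 4.32 CPM, against 7.30 ± 1.26). PIK3C3 went the other way in mean, at 15, 17.4 and 23.8 CPM in the controls, against 24.1, 22.9 and 25.8 in siRBM47, where only control replicate 3 reached the siRBM47 range (log2 fold change 0.37, SE 0.22, edgeR adjusted p = 0.453). AMBRA1 was at 23.2, 24.7 and 24.6 CPM in the controls, against 14.0, 21.6 and 22.3 in siRBM47. All 3 siRBM47 libraries were below the controls, 2 of them by little and replicate 1 by more (log2 fold change -0.32, SE 0.23, edgeR adjusted p = 0.519; -0.14 without replicate 1). The remaining genes were closer to even: PIK3R4 averaged 31.6 ± 2.06 and 29.2 ± 3.46 CPM, and ATG14 30.9 ± 5.98 and 28.9 ± 1.99. For BECN1 the means were 33.7 ± 9.58 and 33.1 ± 8.38, with an edgeR adjusted p of 0.970.

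AMBRA1 and ATG13 are neighbours on chromosome 11. AMBRA1 lies at chr11:46396414-46594125 on the minus strand and ATG13 at chr11:46617527-46674818 on the plus strand (GRCh38, GENCODE 29), 23402 bases apart. Their mean differences had opposite signs, and neither passed the test.

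Membrane supply rests on ATG9A, a scramblase carried in vesicles, on the lipid transfer proteins ATG2A and ATG2B, on WIPI1 and WIPI2, which bind the lipid made by PIK3C3, and on VMP1, a scramblase of the endoplasmic reticulum. VMP1 was at 284, 254 and 266 CPM across control replicates 1 to 3, against 248, 189 and 171 in siRBM47. All siRBM47 libraries lay below the controls, replicate 1 by a small margin (268 ± 15.1 against 203 ± 39.9 CPM, log2 fold change -0.40, SE 0.19, edgeR adjusted p = 0.341). ATG2A was at 37.8, 30.8 and 27.9 CPM in the controls, against 21.9, 29 and 28.7 in siRBM47, with overlapping groups (log2 fold change -0.28, SE 0.21, edgeR adjusted p = 0.544). The other 4 had log2 fold changes from -0.12 to 0.06, among them WIPI1 at 50.04 ± 17 and 46.0 ± 5.61 CPM and ATG9A at 119 ± 21.0 and 124 ± 21.6. WIPI2 averaged 119 ± 9.28 and 117 ± 12.2, and ATG2B 34.6 ± 8.45 and 35.3 ± 6.14. Most of the spread of WIPI1 was control replicate 3, at 69.3 CPM against 37.0 and 43.9 in the other controls.

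VMP1 holds within its exon bases the hairpin of a microRNA that is widely studied in glioma, miR-21. The hairpin lies at chr17:59841266-59841337, inside VMP1 (chr17:59707192-59842255, plus strand, GRCh38) and on the same strand. The mature sequence from RefSeq (GRCh38.p14), at chr17:59841273-59841294, is shown with its seed, bases 2 to 8, in capitals, because the exon bases counted for VMP1 include the hairpin.
hsa-miR-21-5p: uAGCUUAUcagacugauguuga
The 72 hairpin bases make up 1.04% of the exon bases of VMP1. Levels of the mature microRNA were not analysed here, and the VMP1 values above say nothing of them.

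Conjugation follows a ubiquitin-like scheme. ATG7 is the activating enzyme for both ATG12 and the ATG8 proteins, ATG10 and ATG3 are the carrier enzymes, ATG5 and ATG16L1 form with ATG12 the unit that places ATG8 proteins on the membrane, and ATG4 proteases trim and release them. ATG7 had the smallest p of all 34 genes. It was at 49.3, 53.2 and 48.6 CPM across control replicates 1 to 3, against 34.9, 35.9 and 39.7 in siRBM47. Replicates were close to each other in both groups, and the groups did not overlap (50.4 ± 2.47 against 36.8 ± 2.56 CPM). This gave a log2 fold change of -0.45 (SE 0.17, 95% interval -0.84 to -0.07), with an unadjusted p = 0.0256 and an edgeR adjusted p = 0.245. Of the exon bases of ATG7, 18.1% overlap VGLL4 on the opposite strand, and the library kit does not mark strand.

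ATG16L1, which also separated the groups, was at 30.1, 37.2 and 38.1 CPM in the controls, against 26.3, 23.8 and 29.3 in siRBM47. Control replicate 1 was only just above siRBM47 replicate 3 (log2 fold change -0.41, SE 0.19, edgeR adjusted p = 0.331). The proteases ATG4B and ATG4D had negative fold changes with overlapping groups. ATG4B was at 57.3, 52.9 and 34.6 CPM in the controls, against 32.5, 42.1 and 39.2 in siRBM47 (log2 fold change -0.35, SE 0.23, edgeR adjusted p = 0.493). ATG4D was at 22.3, 28.5 and 16.9 CPM in the controls, against 11.3, 17.8 and 20.9 in siRBM47 (log2 fold change -0.44, SE 0.28, edgeR adjusted p = 0.485). For both proteases control replicate 3 was the lowest control and reached into the siRBM47 range. The other 5 conjugation genes had log2 fold changes between 0.04 and 0.29, positive in all 5, and overlapping groups. Of these, ATG12 averaged 75.1 ± 13.4 CPM in the controls, against 91.7 ± 22 in siRBM47, the latter resting on replicate 1 (117 CPM, against 78.6 and 79.5), without which the log2 fold change went from 0.29 to 0.073. ATG10 averaged 11.1 ± 1.26 and 13.5 ± 2.30. ATG3 averaged 72.7 ± 8.46 and 80.2 ± 8.13, ATG4A 13.3 ± 3.41 and 14.8 ± 1.22, and ATG5 58.8 ± 19.1 and 60.7 ± 12.9. In mean, ATG7, ATG16L1, ATG4B and ATG4D thus lay on the lower side and the carrier enzymes, ATG4A, ATG5 and ATG12 on the higher, and none passed the test.

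The ATG8 family comprises the LC3 and GABARAP branches, whose lipid-bound forms coat the autophagosome and bind the receptors. MAP1LC3B was at 164, 140 and 163 CPM across control replicates 1 to 3, against 218, 184 and 170 in siRBM47. It was the only autophagy gene with every siRBM47 library above every control, the closest pair being 170 and 164 (156 ± 13.7 against 191 ± 24.9 CPM, log2 fold change 0.29, SE 0.18, edgeR adjusted p = 0.466). GABARAPL2, the most abundant, was at 132, 142 and 143 CPM in the controls, against 131, 133 and 151 in siRBM47. Its groups covered nearly the same range, with a log2 fold change of -0.01 (SE 0.17, edgeR adjusted p = 0.988). GABARAPL1 was at 31.0, 42.0 and 62.1 CPM in the controls, against 25.6, 36.4 and 39.5 in siRBM47. Its mean difference leaned on control replicate 3: the log2 fold change was -0.41 (SE 0.28, edgeR adjusted p = 0.503) with that library and -0.11 without it. GABARAP was at 11.9, 15.4 and 19.1 CPM in the controls, against 13.4, 19.2 and 15.1 in siRBM47, in full overlap (log2 fold change 0.04, SE 0.25, edgeR adjusted p = 0.958). Of the exon bases of GABARAP, 25.2% overlap opposite-strand genes and 30.5% a same-strand gene model, so its level is uncertain. The near-identical copies had almost no counts: MAP1LC3B2 had 2 in control replicate 1 and GABARAPL3 had 1 in control replicate 2, with 0 in all other libraries. Of the exon bases of GABARAPL3, 100% overlap a gene on the opposite strand, and how reads shared between copies were counted was not examined. These counts therefore cannot tell whether the copies are expressed.

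The receptors bind ubiquitin-marked cargo and ATG8 proteins. SQSTM1 (p62) carries aggregates and is itself degraded by autophagy, NBR1 works beside it, OPTN and CALCOCO2 (NDP52) act on damaged mitochondria and bacteria, and TAX1BP1 takes part in aggregate and ferritin turnover. SQSTM1 was at 145, 191 and 220 CPM across control replicates 1 to 3, against 129, 195 and 214 in siRBM47. The ranges were nearly the same (185 ± 37.9 against 179 ± 44.5 CPM), with a log2 fold change of -0.05 and a 95% interval from -0.59 to 0.49 (SE 0.24, edgeR adjusted p = 0.946). NBR1 was at 98.4, 107 and 144 CPM in the controls, against 103, 106 and 105 in siRBM47. Its siRBM47 libraries were tightly placed within the control range (log2 fold change -0.15, SE 0.19, edgeR adjusted p = 0.750). CALCOCO2 was at 85.6, 86.4 and 106 CPM in the controls, against 91.4, 99.2 and 97.4 in siRBM47, again within the control range (log2 fold change 0.05, SE 0.18, edgeR adjusted p = 0.920).

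OPTN had the most positive fold change of all 34 genes. It was at 37.2, 45 and 67.8 CPM in the controls, against 68.5, 64.8 and 72.0 in siRBM47. Control replicates 1 and 2 lay well below every siRBM47 library, and control replicate 3 lay among them (49.99 ± 15.9 against 68.5 ± 3.60 CPM, log2 fold change 0.45, SE 0.24, 95% interval -0.08 to 0.98, edgeR adjusted p = 0.385). TAX1BP1 was at 67.0, 61.1 and 80.4 CPM in the controls, against 116, 70.9 and 75.4 in siRBM47. Its higher siRBM47 mean rested on replicate 1 (log2 fold change 0.33, SE 0.23, edgeR adjusted p = 0.521): without that library the log2 fold change was 0.073.

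**Figure D3:**
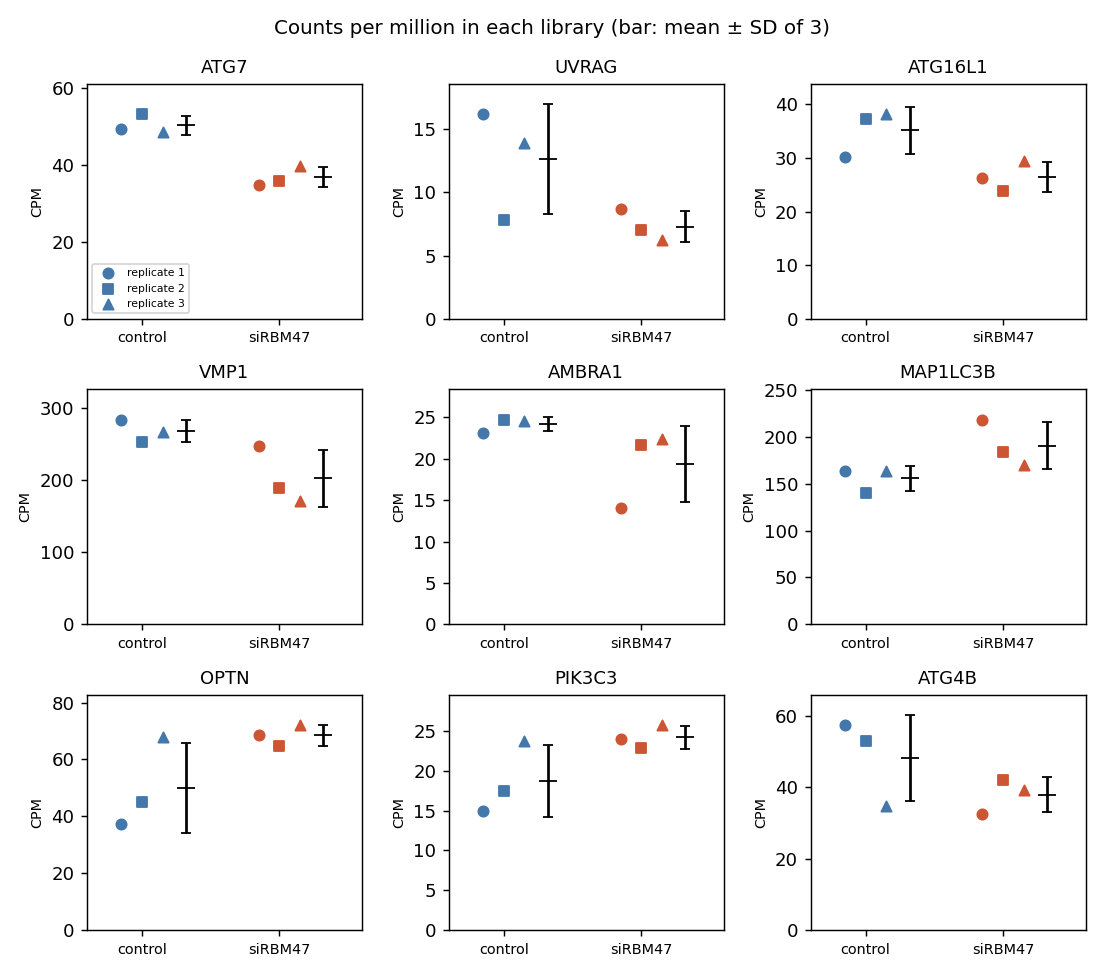
CPM on the scaled library size in each library, with group means and SD, for ATG7, UVRAG, ATG16L1, VMP1, AMBRA1, MAP1LC3B, OPTN, PIK3C3 and ATG4B. Each axis starts at 0. Control replicate 3 lies among the siRBM47 libraries for OPTN and PIK3C3, while for ATG7 the lowest control is at 48.6 CPM and the highest siRBM47 library at 39.7.

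Control replicate 3 bears on several of these values. Its log2 CPM was above the mean of the other controls for 25 of the 34 genes and below it for 9, with a median difference of 0.32, beside 0.01 over all tested genes. This library was higher for all 5 receptors, all 4 ATG8 family genes and all 6 genes of the lipid kinase complex, though by only 0.0046 for PIK3R4. Of the initiation genes 3 were higher in it and 1 lower, and of the conjugation enzymes 5 and 4. Of the membrane supply and scaffold genes 2 were higher and 4 lower. Over all 14578 tested genes 7389 were higher and 7189 lower. A difference of more than 0.5 was seen for 12 of the 34 (35.3%), beside 49.5% of all tested genes. The part of this library in each result was not tested beyond leaving it out.

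Without control replicate 3 the call changed for 3 of the 34 genes. OPTN was higher in siRBM47 (log2 fold change 0.74, SE 0.17, edgeR adjusted p = 0.0073), PIK3C3 was higher (0.58, SE 0.19, adjusted p = 0.0413) and ATG4B was lower (-0.54, SE 0.17, adjusted p = 0.0372). Over the 13 alternatives of each, the adjusted p ran from 0.0073 to 0.719 for OPTN, from 0.0413 to 0.770 for PIK3C3 and from 0.0372 to 0.826 for ATG4B. Just outside the threshold in this fit were ATG7 (-0.48, edgeR adjusted p = 0.0507) and ATG13 (0.52, adjusted p = 0.0515). The 3 calls are 8.82% of the tested autophagy genes, while 3117 of all tested genes were called without that library, 10.1% higher, 11.3% lower and 21.4% in either direction. The difference between these shares was not tested. Among the 34 the median log2 fold change became 0.07, beside 0.02 over all tested genes, and 8 of the 34 changed sign.

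**Figure D4:**
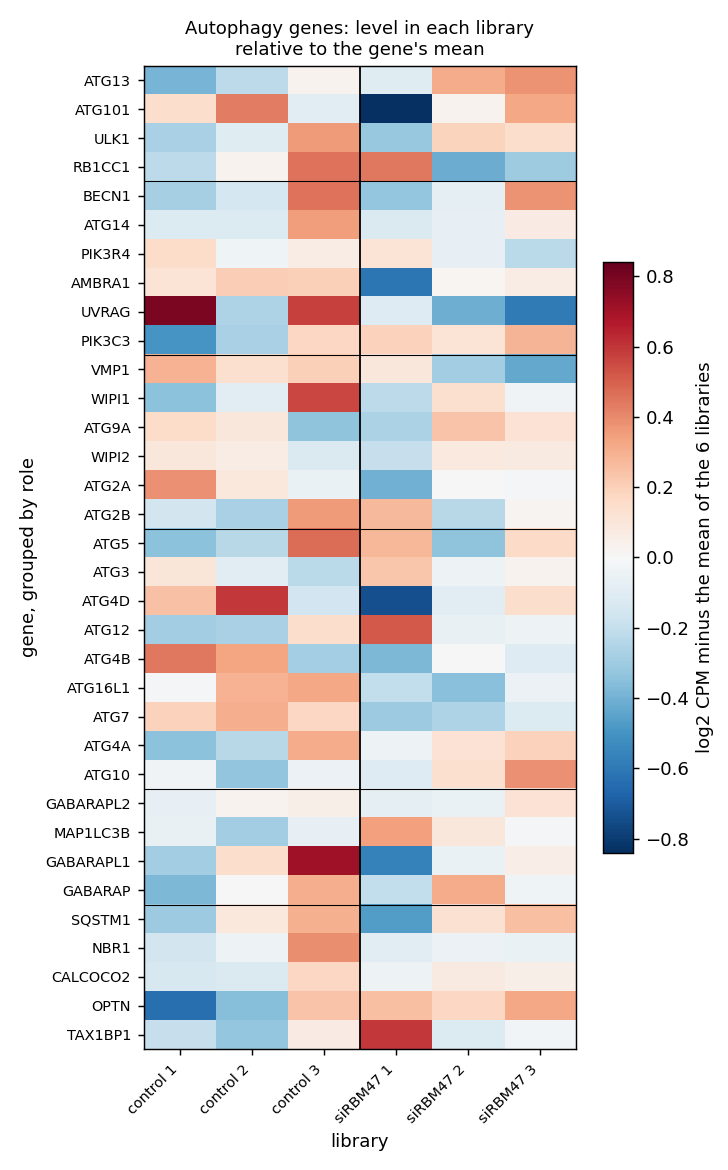
Log2 CPM of the 34 tested autophagy genes in each library, as the difference from that gene's mean over the 6 libraries, by role. Control replicate 3 is higher than the mean of the other controls for 25 genes and lower for 9, and siRBM47 replicate 1 departs from the other siRBM47 libraries for ATG101, RB1CC1 and ATG4D.

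A second library, siRBM47 replicate 1, departed from its group for some genes. Against the mean log2 CPM of the other siRBM47 libraries it differed by -1.01 for ATG101, 0.80 for RB1CC1, -0.76 for ATG4D, 0.66 for TAX1BP1 and -0.66 for SQSTM1. Genes of the same complex, such as ATG101 and RB1CC1, departed in opposite directions. The median over the 34 genes was -0.12, beside -0.03 over all tested genes. Leaving this library out brought the log2 fold change of ATG4D from -0.44 to -0.22, that of ATG2A from -0.28 to -0.16, that of GABARAPL1 from -0.41 to -0.25 and that of MAP1LC3B from 0.29 to 0.18.

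Of 89 other genes of the pathway, grouped in lists by function, 84 were tested and 2 were called, both lower. These were DDIT3 (CHOP) and CEBPB, stress-response factors with targets among autophagy genes, in a list of 14 transcription factors. DDIT3 was at 116 ± 22.3 CPM in the controls, against 33.3 ± 2.22 in siRBM47 (log2 fold change -1.80, SE 0.20, edgeR adjusted p = 0.00955), and CEBPB at 624 ± 52.7 and 257 ± 46.7 (-1.28, SE 0.19, adjusted p = 0.0386). Both calls were lost when any siRBM47 library was left out, where edgeR called 0 genes in all. Without control replicate 1 edgeR called 1 of the 84, and without control replicate 2 also 1. At most 1 of these calls thus remained in each of those fits. With each library left out in turn the edgeR adjusted p reached 0.160 for DDIT3 and 0.319 for CEBPB. Of the exon bases of DDIT3, 31.6% overlap genes on the opposite strand. TFEB, regarded as the chief activator of autophagy and lysosome genes, did not pass (-0.38, SE 0.26, edgeR adjusted p = 0.506). Without control replicate 3, 23 of the 84 were called (13 higher, 10 lower), or 27.4% beside the 21.4% of all tested genes.

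In the other 4 lists 0 genes were called by edgeR. Among 13 other core autophagy genes 1 was higher (EI24) and 2 lower (ATG16L2 and MAP1LC3A) at an unadjusted p under 0.05. EI24, a protein of the endoplasmic reticulum needed for autophagosome formation, was at 64.8 ± 2.24 and 103 ± 13.1 CPM (log2 fold change 0.66, SE 0.18, edgeR adjusted p = 0.127, DESeq2 adjusted p = 0.0283). ATG16L2, a relative of ATG16L1, was at 7.22 ± 3.95 and 2.91 ± 0.119 CPM (-1.30, SE 0.42, edgeR adjusted p = 0.185). Among 13 fusion genes, which join autophagosome and lysosome, 0 were higher and 1 lower at that level, VPS16 of the tethering complex (22.4 ± 1.59 and 14.6 ± 2.51 CPM, log2 fold change -0.63, SE 0.21, edgeR adjusted p = 0.197). The next was EPG5, another tether (-0.47, SE 0.24, edgeR adjusted p = 0.368).

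Among 16 other selective receptors 1 was higher at an unadjusted p under 0.05 and 0 lower. This was BNIP3L (NIX), a mitochondrial receptor, at 297 ± 29.6 CPM in the controls, against 479 ± 107 in siRBM47 (log2 fold change 0.69, SE 0.21, edgeR adjusted p = 0.157). STBD1, a glycogen receptor, came next (-0.61, edgeR adjusted p = 0.417). Of 28 genes of the nutrient-sensing kinases 1 was higher and 3 lower at that level. Those with the smallest p were DDIT4 (REDD1), at 586 ± 87.3 and 216 ± 57.5 CPM (-1.44, SE 0.24, edgeR adjusted p = 0.0522, DESeq2 adjusted p = 8.73e-06), and SESN2, at 119 ± 14.9 and 65.0 ± 11.5 (-0.87, SE 0.20, edgeR adjusted p = 0.102, DESeq2 adjusted p = 0.00778). Both restrain the mTORC1 kinase, which itself restrains ULK1. Beside these, the log2 fold changes of the 34 machinery genes lay between -0.79 and 0.45.

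DDIT3 and CEBPB were called lower in the fit of all libraries, though not in every alternative. With this in view, the 250 bases before the RefSeq starts (GRCh38.p14) were searched on both strands. The search used 5 motifs of factors known to act on autophagy genes. Promoters were at hand for 32 of the 35 genes, all but UVRAG, ATG4D and RB1CC1. The 27305 genes with promoters gave the background. A gene counted as a match if any of its starts had the letters. Percents of all promoters below are percents of these genes. The letters TGATGNAA, bound by ATF4 with DDIT3 or CEBPB, occurred for 0 of the 32 and in 3.89% of all promoters, so 0 is near this background. CACGTG, bound by TFEB and related factors, occurred for 2 genes, ATG3 and ATG14, or 6.25%, beside 7.73% of all promoters. TGACNNNGC, bound by NFE2L2, occurred for ATG101, CALCOCO2 and MAP1LC3B, 9.38% beside 13.2%. GTAAACA, bound by FOXO factors, occurred for CALCOCO2 alone, beside 3.66% of all promoters. The decamer consensus of NF-kB occurred for OPTN alone, 3.12% beside 0.645%. The stretches with the TFEB and NF-kB letters, in capitals, are shown 5′ to 3′ on the strand of the gene. They are shown because ATG3 and ATG14 hold the letters of the chief autophagy factor and OPTN had the most positive fold change.
ATG3, chr3:112561965-112561990, minus strand: tttctcacgtCACGTGccgggagagt
ATG14, chr14:55411836-55411861, minus strand: aacaaaatccCACGTGactggctctc
OPTN, chr10:13100061-13100090, plus strand: gcggggcccgGGAAATTCCCcggcgcgggc
The CACGTG letters end 13 bases before the start of ATG3 and 16 before that of ATG14. In OPTN the NF-kB letters lie in the reverse orientation, 92 to 83 bases before a RefSeq start and 11 to 2 before another. Neither ATG3 nor ATG14 passed the test, and OPTN passed only without control replicate 3. A match is a description of the letters and not a site of binding.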

How the data were processed

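The 6 libraries were of total RNA from U87 cells, 3 per group; groups and replicate numbers came from the sample titles. Reads were aligned with HISAT2 2.0.5 to hg38 and counted with featureCounts 1.5.0-p3, per the submitters' processing notes. The strand setting and the annotation were not given in the sources used here. Deposited files hold raw counts and FPKM per gene made by the authors, per the file headers. FPKM served only to compare levels between genes.

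Counts of 14578 genes kept by filterByExpr (minimum count 10) were tested with edgeR 4.0.16 (quasi-likelihood, TMM factors, no block) in R 4.3.3, with Benjamini-Hochberg adjustment over all of them and a threshold of 0.05. CPM used TMM-scaled library sizes, and log2 CPM a prior count of 2. A gene's groups overlap unless every library of a group lies beyond every library of the other. Identifiers were matched to symbols through a name table, without a match for 5909; PECAM1 and NCOA4 were not matched. Exons, overlaps and positions are from GENCODE 29 (GRCh38); promoters and the microRNA from RefSeq. More than 10% of exon bases overlap genes on the opposite strand for 7 of the 35 genes (ATG101, BECN1, WIPI1, ATG4D, ATG7, GABARAP and SQSTM1), and 38.8% of those of ATG9A overlap a gene on its own strand.

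Values in each library are given for receptors, ATG8 genes and the 10 other members with the smallest p; in each further list the genes called, or the 2 with the smallest p, are named. TFEB, MAP1LC3A, MAP1LC3C and the motif matches were named outside this rule. The members and lists were chosen with earlier results of these data known. Alternatives were RLE and upper-quartile scaling, DESeq2 1.42.0, limma-voom (limma 3.58.1), no filter, a stricter minimum count (50), leaving out each library, and a replicate block. The edgeR step was tested on simulated counts with 200 changed genes. Limits from a count of 0 cover counting error only.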

Additional observations from a re-analysis of the deposited data

How the results depend on the processing

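Of 442 results (34 autophagy genes under 13 alternatives), 404 kept their direction and side of the threshold, 35 reversed and 3 became calls, these 3 without control replicate 3. In 12 of the 13 alternatives 0 members were called; over the fits that leave out a library the count ran from 0 to 3. All genes called numbered 32 in the fit of all libraries, 644 by DESeq2, 804 with no filter, and 0 to 3117 with a library left out, the latter without control replicate 3; leaving out any siRBM47 library gave 0. Further pathway genes called numbered 2, against 5 by DESeq2, 5 with no filter and 0 to 23 with a library left out. Members with separated groups numbered 5, against 5 to 15 with a library left out: 15 (44.1%, beside 54.2% of all tested genes) without control replicate 3, 10 (29.4% beside 32.7%) without siRBM47 replicate 1 and 8 (23.5% beside 29.1%) without control replicate 1. RBM47 reversed to 0.10 by limma-voom and 0.12 with the replicate block. It ran from -0.39 to 0.76 with a library left out, the latter without control replicate 3. GABARAPL2 reversed to 0.0021 under upper-quartile scaling and 0.0051 with no filter. With a library left out, 14 genes changed sign, with log2 fold changes from -0.48 to 0.049 for RB1CC1, -0.072 to 0.035 for GABARAPL2, -0.091 to 0.34 for ATG5, -0.11 to 0.25 for ATG2B, -0.29 to 0.19 for WIPI1, -0.52 to 0.011 for ATG101, -0.25 to 0.23 for BECN1, -0.16 to 0.076 for ATG14, -0.087 to 0.061 for WIPI2, -0.19 to 0.14 for SQSTM1, -0.11 to 0.21 for GABARAP, -0.11 to 0.21 for ULK1, -0.24 to 0.035 for NBR1 and -0.079 to 0.19 for ATG9A. Uncalled values that moved by over 1.5 times without control replicate 1 included those of ATG2A (-0.14), ATG4B (-0.20), OPTN (0.29) and PIK3C3 (0.24). Without control replicate 2 ATG4D was at -0.23, and without siRBM47 replicate 3 ATG10 was at 0.15. The causes were not tested. With the replicate block 39 genes were called and 0 members; CEBPB passed the threshold no longer (edgeR adjusted p = 0.0535) and DDIT4 did (0.0394). No label says that the numbers pair the libraries. Deviations from the group means correlated at -0.04, 0.13 and 0.12 for same-numbered libraries, and from -0.21 to 0.20 for differently numbered ones. With 3 libraries per group, of which control replicate 3 stands apart, these values cannot decide whether libraries were paired. With 3 libraries per group, even EI24 (0.66, SE 0.18, edgeR adjusted p = 0.127) was not called.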
